A study of Mus musculus with 2 samples.

Results

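The genes described here encode the proton pump that acidifies endosomes and lysosomes, the vacuolar ATPase (V-ATPase), and the chloride, calcium, sodium and potassium transporters that work beside it in the same membranes. They were chosen by symbol, as the genes whose symbol starts with Atp6v or Atp6ap together with Clcn3 to Clcn7, Ostm1, Mcoln1, Mcoln2, Mcoln3, Tpcn1, Tpcn2 and Tmem175 and by no measured value, though with earlier results of these data known. This gave 37 genes on 41 probe sets, out of 22180 named genes. Of these, 25 carry a V-ATPase symbol and 12 belong to the channels and exchangers. One of the 25, Atp6v1fnb, is the gene next to Atp6v1f and is not known as a subunit of the pump. The rule found no probe set of its own for Atp6v0c, the proteolipid of the pump's ring, which was not analysed here.

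The series compared alveolar macrophages, which live in the air sacs and clear surfactant and debris, from adult C57BL6 mice. The array labelled PIKfyve KO holds RNA from mice with floxed Pikfyve alleles and LysM-Cre, whose recombinase is made wherever lysozyme M is expressed, in macrophages and also in neutrophils and other myeloid cells. The array labelled wild type holds RNA from mice with the same floxed alleles and no Cre in the label, and the animals were littermates. From collagenase-treated lungs, cells that excluded DAPI and stained for Siglec-F and CD11c were sorted, and cDNA amplified from 10 ng of RNA was put on Affymetrix arrays. Each genotype has 1 array, with no word in the labels on the number of mice behind it, so no difference below has a replicate error and none was tested. In sorted bulk RNA, fewer cells of a type and less RNA per cell cannot be told apart.

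The V-ATPase is a rotary motor built of a cytosolic V1 sector, which hydrolyses ATP, and a membrane V0 sector, through which protons pass. Chloride entering through CLC exchangers balances the charge of the pumped protons, while TRPML and two-pore channels release calcium and sodium from the lumen, and Tmem175 passes potassium and protons. PIKfyve makes the lipid PI(3,5)P2 on these membranes, and that lipid is known to open TRPML1 and the two-pore channels. The comparison asks how the transcripts of this machinery differ between cells labelled as lacking PIKfyve and their controls.

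Pikfyve itself, the targeted gene, read 5.95 in the array labelled knockout and 5.68 in the array labelled wild type on the log2 scale, so it was not lower where it was to be deleted. The position of its probes with respect to the floxed exons is unknown here, and the row therefore does not check the labels. Counts and medians cover genes whose average signal over the arrays was at least 5.13, the median signal of all probe sets, which kept 12516 genes and 28 of the 37 members. As a measure of background, the 95th percentile of 1432 sensory receptor genes (olfactory, vomeronasal and taste), of which few are expected outside sense organs, lay at 5.31 in the array labelled knockout and 5.37 in the array labelled wild type. Each difference is given in log2 units as knockout minus wild type. Across the genes analysed their median was 0.00, but it followed the level of the gene, from -0.06 in the lowest decile by mean level to 0.13 in the highest decile. Several members are therefore also set beside the genes of their own decile.

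Most of the pump and most of the channels were modestly higher in the array labelled knockout, and the members furthest apart were Mcoln2, a TRPML channel gene, and Atp6v1c1, a V1 subunit gene. Of the 28 members that passed the filter, 22 read higher in the array labelled knockout and 6 read lower, where 48.9% of all genes analysed read higher. The highest decile by level, in which 70.3% of all genes read higher, holds 11 of the pump genes. With each decile centred on its median, a choice made after the values were seen, 22 of the 28 lay above 0. Their median was 0.22 as deposited and 0.11 with that centring. Only Mcoln2 and Atp6v1c1 were at least 1.5-fold higher, where 4.45% of all genes analysed were higher by that much and 7.11% were that far apart in either direction. None of the 28 was at least 1.5-fold lower, where 2.66% of all genes analysed were, and none was 2-fold apart, where 1.26% were. Over all 37 genes, filter aside, 25 read higher and 12 lower. The plot of signals shows each member on both arrays, and 9 members lie below the filter.

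**Figure D1:**
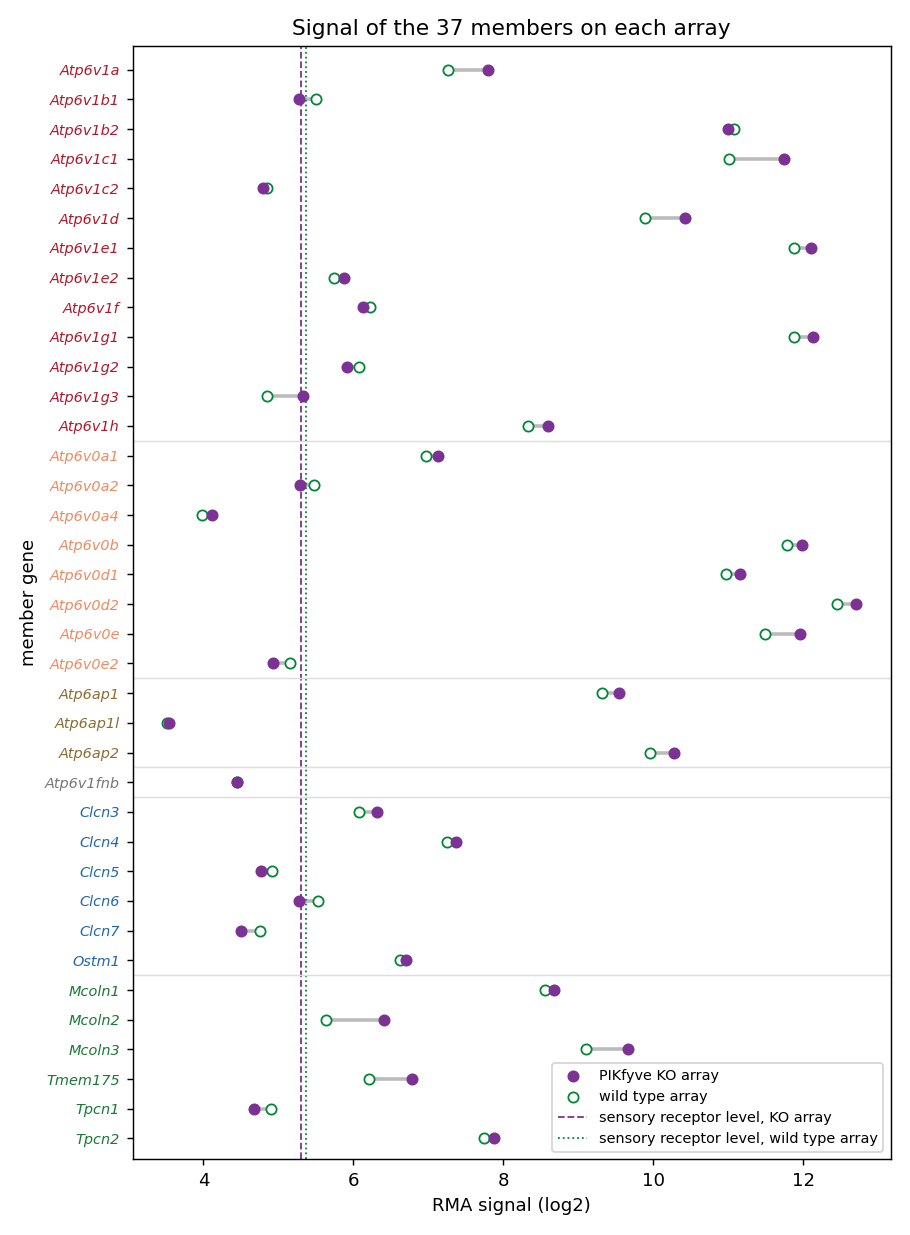
Signal (log2, x axis) of the 37 member genes (y axis, coloured by group) in the array labelled knockout (filled) and the array labelled wild type (open), 1 array each, with the sensory receptor level of each array as a vertical line. The pair of points is furthest apart for Mcoln2 and Atp6v1c1, and signals of different genes come from different probes and are not comparable with each other.

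The V1 sector held the largest difference of the pump. Atp6v1c1, the C1 subunit that links the stalk of V1 to the membrane sector and is released when the pump is switched off by disassembly, read 11.75 in the array labelled knockout and 11.00 in the array labelled wild type. The difference of 0.74 is 1.68-fold. Among all genes analysed 2.23% had a larger difference, and in its own decile by level 2.32% had one. It was 3.66 times the local spread, which is a scaled median absolute deviation of the differences of genes at similar level and holds noise and real differences alike.

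A pair of V1 subunits differed by nearly the same amount below that threshold. Atp6v1d, the central rotor shaft, read 10.43 in the array labelled knockout and 9.89 in the array labelled wild type, a difference of 0.54. Atp6v1a, the catalytic A subunit that binds ATP, read 7.80 in the array labelled knockout and 7.27 in the array labelled wild type, a difference of 0.53. Both are about 1.45-fold, and 5.33% and 5.48% of genes analysed had larger differences. In their own deciles 6.39% and 7.91% of genes did.

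The other V1 subunits with clear signal lay closer together on the arrays. Atp6v1h, the regulatory H subunit, read 8.59 in the array labelled knockout and 8.32 in the array labelled wild type. Atp6v1e1, a peripheral stalk subunit, read 12.10 in the array labelled knockout and 11.87 in the array labelled wild type, a difference of 0.23. Atp6v1b2 encodes the B2 subunit, which alternates with the A subunit in the head of V1. It read 11.00 in the array labelled knockout and 11.08 in the array labelled wild type, and its probe sets differed by -0.07 and -0.08. The A and B subunits, which form one hexamer, thus read 0.53 higher and 0.08 lower in the array labelled knockout, and a difference between them was not tested. Atp6v1f, of the central stalk, read 6.12 in the array labelled knockout and 6.22 in the array labelled wild type.

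Atp6v1g1, the other peripheral stalk subunit, showed how far probe sets of 1 gene can disagree. Its 3 probe sets differed by 0.44, 0.15 and 0.15, and their mean by 0.25. The first read 11.43 in the array labelled knockout and 10.99 in the array labelled wild type, and the others lay between 12.26 and 12.54 on both arrays. All 3 were higher in the array labelled knockout.

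In the V0 sector the differences were mostly in the same direction, and none was as large as those of Atp6v1c1, Atp6v1d and Atp6v1a. The sector medians were close, 0.20 for V0 and 0.23 for V1, and a difference between the sectors was not tested. Atp6v0e, a small membrane subunit, read 11.96 in the array labelled knockout and 11.49 in the array labelled wild type, a difference of 0.47 or 1.38-fold, and 8.71% of genes in its decile had a larger one. Atp6v0d2, the d2 subunit known from osteoclasts and fused macrophages, read 12.70 in the array labelled knockout and 12.46 in the array labelled wild type. Its more widely expressed paralogue Atp6v0d1 read 11.16 in the array labelled knockout and 10.97 in the array labelled wild type. The differences of 0.25 and 0.19 for the d2 and d1 genes are within 1.5 times the local spread at that level, 0.20. Atp6v0b, a proteolipid of the rotating ring, differed by 0.21, and Atp6v0a1, an a subunit that forms the proton half-channels, by 0.16.

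The a subunit gene known as a3 carries the symbol Tcirg1 and so lies outside the rule. It read 7.57 in the array labelled knockout and 7.73 in the array labelled wild type. Atp6v0a2, the a2 gene of Golgi and endosomes, read 5.28 in the array labelled knockout, below the receptor level there, and 5.47 in the array labelled wild type. None of these a subunit genes was 1.5-fold apart.

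The accessory subunits of the assembled pump were both somewhat higher. Atp6ap2, the prorenin receptor, read 10.27 in the array labelled knockout and 9.95 in the array labelled wild type, a difference of 0.32. Atp6ap1, which helps V0 assemble in the endoplasmic reticulum, read 9.54 in the array labelled knockout and 9.31 in the array labelled wild type, a difference of 0.22. In their decile 22.3% of genes had a larger difference than Atp6ap2, and 35.3% a larger one than Atp6ap1.

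**Figure D2:**
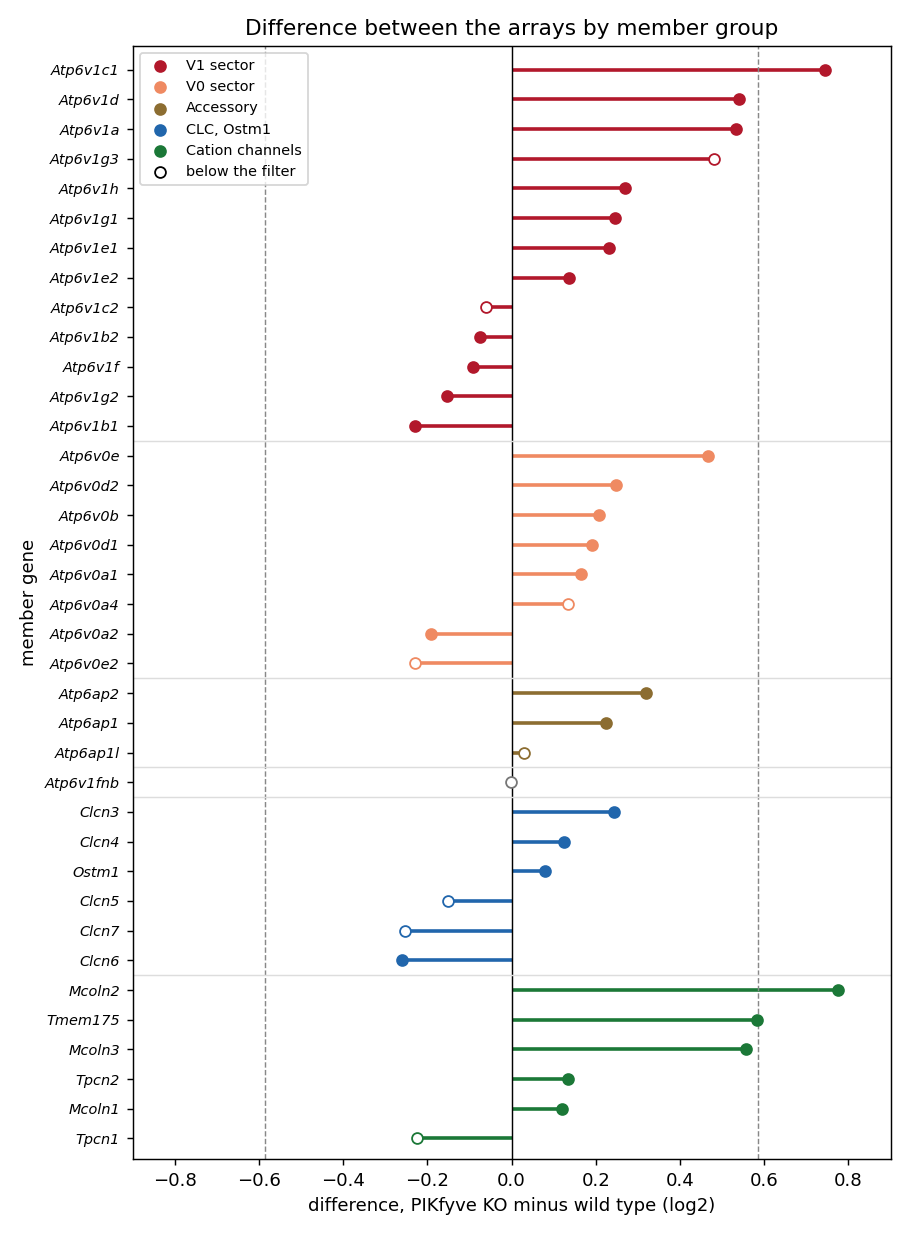
Difference between the arrays (knockout minus wild type, log2, x axis) for the 37 member genes (y axis), grouped by role, with open points for genes below the filter and dashed lines at 1.5-fold. Atp6v1c1 and Mcoln2 lie beyond the upper line, Tmem175 lies on its inner side, and no member lies beyond the lower line.

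Several subunits come as alternative isoforms, and the arrays separated those with signal from those without. B2, C1, E1, G1, d1, d2 and e were above the receptor level on both arrays. Atp6v1c2, Atp6v0a4, Atp6v0e2 and Atp6ap1l were below it on both, and so was Atp6v1fnb. Atp6v0a4 and Atp6v1b1 are isoforms of acid-secreting epithelia such as kidney intercalated cells. Atp6v1b1 read 5.28 in the array labelled knockout, below the receptor level, and 5.51 in the array labelled wild type, above it. Atp6v1g3, an isoform known from kidney, read 5.33 in the array labelled knockout and 4.85 in the array labelled wild type. Its knockout value lay below the wild type array's receptor level, so no fold is given. The testis isoform Atp6v1e2 read 5.87 in the array labelled knockout and 5.74 in the array labelled wild type, and the neuronal Atp6v1g2 read 5.92 in the array labelled knockout and 6.07 in the array labelled wild type. Such levels are reached by some of the receptor genes too, since 5% of those lie above the level used.

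Over the pump as a whole, 19 of the 25 genes passed the filter, 14 of them read higher in the array labelled knockout and their median difference was 0.22. The V1 median was 0.23 over 11 genes, the V0 median 0.20 over 6 and the accessory median 0.27 over 2. Much of the pump lies among strongly hybridising genes, which as a class read higher in the array labelled knockout. Of the 11 pump genes in the highest decile by level, 10 read higher, with a median of 0.25. In that decile 70.3% of all genes read higher, with a median of 0.13, and 5.04% were at least 1.5-fold higher. The 8 pump genes below that decile were split, with 4 higher and 4 lower and a median of 0.02. When each decile was centred on its own median, a choice made after the values were seen, the pump's median was 0.12 and 14 of 19 genes stayed above 0.

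**Figure D3:**
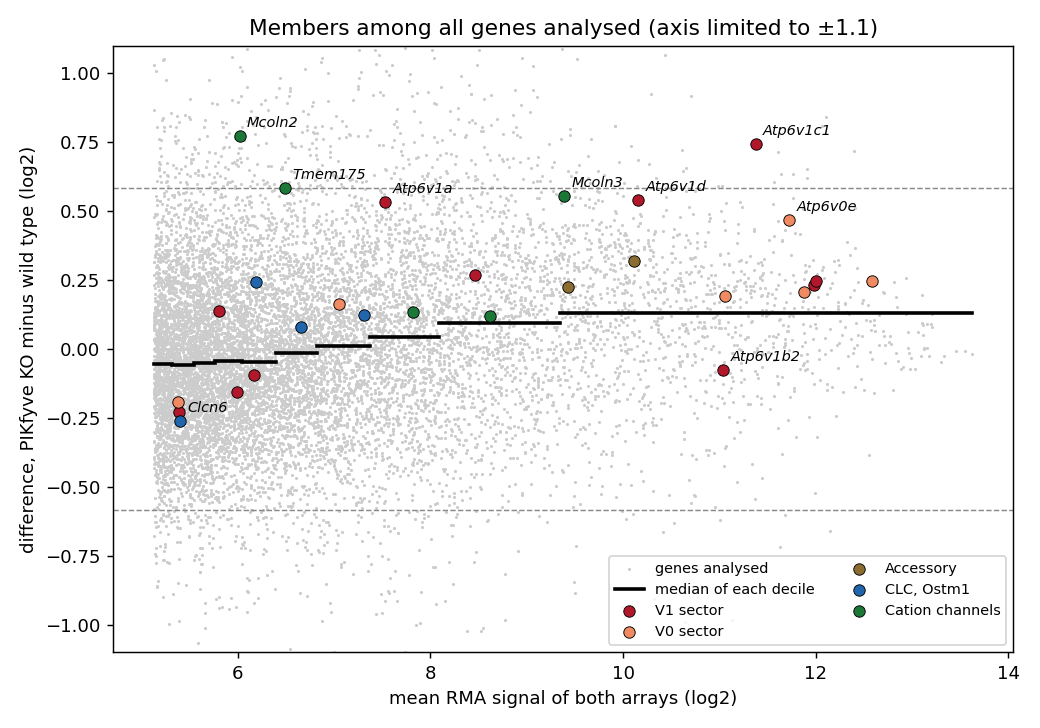
Difference between the arrays (knockout minus wild type, log2, y axis) against the mean signal of both arrays (log2, x axis) for 12516 genes in grey and 28 members in colour, with the median of each decile in black and dashed lines at 1.5-fold. The axis leaves out 121 genes beyond 1.1. The medians climb with level to 0.13, and 10 of the 11 pump genes in the highest decile lie above 0.

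Among the cation channels the largest differences belonged to Mcoln2, Tmem175 and Mcoln3. Mcoln2, which encodes TRPML2, a calcium-permeable channel of recycling endosomes in immune cells, read 6.41 in the array labelled knockout and 5.63 in the array labelled wild type. That difference of 0.77, or 1.71-fold, was the largest of all members, and 1.98% of genes analysed and 1.44% of its decile had a larger one. With an offset of 32 on the linear scale, which shrinks differences of dim genes, it was 0.52, under the 1.5-fold threshold and below the 0.74 of Atp6v1c1 and the 0.53 of Mcoln3. Mcoln3, which encodes TRPML3, a pH-sensitive channel of early endosomes and autophagosomes, read 9.66 in the array labelled knockout and 9.11 in the array labelled wild type, a difference of 0.56 or 1.47-fold. In its decile 5.76% of genes had a larger one. Mcoln1, which encodes TRPML1, the lysosomal channel lost in mucolipidosis type IV, read 8.68 in the array labelled knockout and 8.55 in the array labelled wild type. Its difference of 0.12 was close to the 0.09 median of its decile. Mcoln2 and Mcoln3 are neighbouring genes on chromosome 3, and Mcoln1 lies on chromosome 8.

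Tmem175, the lysosomal potassium and proton channel linked to Parkinson's disease in humans, read 6.79 in the array labelled knockout and 6.20 in the array labelled wild type. Its difference of 0.58 lay just under the 1.5-fold threshold, and 4.49% of genes analysed and 4.71% of its decile had a larger one. Tpcn2, the two-pore channel of lysosomes, read 7.88 in the array labelled knockout and 7.75 in the array labelled wild type. Tpcn1, its endosomal paralogue, read 4.67 in the array labelled knockout and 4.90 in the array labelled wild type, below the receptor level on both. The cation channels thus had 5 of 6 genes above the filter, all 5 higher in the array labelled knockout. Their median was 0.56, with differences from 0.12 to 0.77. For comparison, 48.9% of all genes analysed read higher, 61.3% in the decile of Mcoln1 and 70.3% in that of Mcoln3. In the decile of Tpcn2, 38.4% of genes had a larger difference than Tpcn2. With each decile centred on its median, all 5 stayed above 0, with a median of 0.43.

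The CLC exchangers and their partner showed no difference of 1.5-fold. Clcn3, an endosomal chloride and proton exchanger, read 6.32 in the array labelled knockout and 6.07 in the array labelled wild type, a difference of 0.24. Clcn4, which assembles with Clcn3 protein, read 7.37 in the array labelled knockout and 7.24 in the array labelled wild type. Clcn6, the exchanger of late endosomes, read 5.27 in the array labelled knockout, below the receptor level, and 5.53 in the array labelled wild type. The lysosomal exchanger Clcn7 read 4.50 in the array labelled knockout and 4.76 in the array labelled wild type, and Clcn5 read 4.77 in the array labelled knockout and 4.92 in the array labelled wild type. Both lay below the receptor level on each array, so these probe sets give no usable difference for either gene. Ostm1, the subunit that stabilises the Clcn7 protein, had 2 probe sets that disagreed in sign. One read 7.24 in the array labelled knockout and 6.97 in the array labelled wild type, and the other read 6.15 in the array labelled knockout and 6.26 in the array labelled wild type.

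Promoter sequence was examined because many genes of acidification carry the CLEAR element, the binding motif of TFEB and TFE3, transcription factors of lysosome biogenesis. Of the 37 members, 29 had a promoter of 300 bases in the RefSeq-derived table (GRCm38.p6), running from 250 bases before the start site to 50 after it. Searched on both strands, the core TCACGTGA stood in a promoter of 6 members, or 20.7% of those 29. It stood in 1.12% of all genes with a promoter in the table and in 2.04% of the genes analysed that have one. The shorter CACGTG, which every TCACGTGA contains, stood in 9 of the 29, against 8.09% of all genes. The full palindrome, with a G before and a C after TCACGTGA, stood in no member, in 0.37% of all genes and in 0.69% of the genes analysed. Since the motif is already known from genes of acidification, its larger share among the members is no independent finding. A match to letters is not evidence of binding. The stretches around the 6 matches follow, with TCACGTGA in capitals and written 5′ to 3′ on the strand of the gene.
Atp6v1a (chr16:44139368-44139407, minus strand): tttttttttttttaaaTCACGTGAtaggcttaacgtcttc
Atp6v0d1 (chr8:105566045-105566084, minus strand): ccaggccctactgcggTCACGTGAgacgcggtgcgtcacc
Atp6v0e (chr17:26676382-26676421, plus strand): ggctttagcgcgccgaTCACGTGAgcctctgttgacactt
Mcoln1 (chr8:3500457-3500496, plus strand): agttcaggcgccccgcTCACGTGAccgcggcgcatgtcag
Clcn6 (chr4:148038816-148038855, minus strand): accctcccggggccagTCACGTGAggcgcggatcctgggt
Clcn7 (chr17:25133381-25133420, plus strand): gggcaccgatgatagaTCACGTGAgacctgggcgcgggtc

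The first base of the motif lay at -132 from the start site in Atp6v1a, -4 in Atp6v0d1, 2 in Atp6v0e, -46 in Mcoln1, -26 in Clcn6 and 6 in Clcn7, counting negative positions upstream. The 4 of these genes above the receptor level on both arrays, Atp6v1a, Atp6v0d1, Atp6v0e and Mcoln1, differed by 0.53, 0.19, 0.47 and 0.12. Clcn6 and Clcn7, which differed by -0.26 and -0.25, lay below that level on at least 1 array, and no direction is drawn from them. Clcn6 passed the filter, so it stays in the counts of members and in the CACGTG median given next. Among members that passed the filter and have a promoter in the table, the 8 with CACGTG had a median difference of 0.20 and the 14 without it 0.19. The whole promoters of 2 TRPML genes are given because their differences were unlike, with CACGTG and TCACGTGA in capitals. Mcoln1, with both forms, differed by 0.12, and Mcoln2, with CACGTG once, differed by 0.77. The remaining TRPML gene, Mcoln3, had neither form in its promoter and differed by 0.56. A link between motif and difference was not tested.
Mcoln1 (chr8:3500269-3500568, plus strand): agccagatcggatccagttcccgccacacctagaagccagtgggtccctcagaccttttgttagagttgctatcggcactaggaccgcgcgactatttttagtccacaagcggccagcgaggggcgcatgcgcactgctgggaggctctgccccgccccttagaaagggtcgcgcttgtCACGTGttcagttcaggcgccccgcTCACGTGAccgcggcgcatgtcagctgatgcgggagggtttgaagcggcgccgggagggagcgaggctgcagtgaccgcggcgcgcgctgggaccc
Mcoln2 (chr3:146149924-146150223, plus strand): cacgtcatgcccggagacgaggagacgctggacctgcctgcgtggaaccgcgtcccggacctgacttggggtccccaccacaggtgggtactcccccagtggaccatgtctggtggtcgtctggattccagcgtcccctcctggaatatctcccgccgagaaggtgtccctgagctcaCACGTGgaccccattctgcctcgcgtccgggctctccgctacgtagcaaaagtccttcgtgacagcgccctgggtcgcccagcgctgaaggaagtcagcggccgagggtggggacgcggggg

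The MiT/TFE factors that bind such motifs were not 1.5-fold apart. Tfeb read 5.77 in the array labelled knockout and 5.88 in the array labelled wild type, and Tfe3 read 5.69 in the array labelled knockout and 5.59 in the array labelled wild type. Tfec, the family member of myeloid cells, read 10.99 in the array labelled knockout and 11.32 in the array labelled wild type, a difference of -0.32. Transcript levels do not show where these proteins lie in the cell, which is how they are mainly regulated.

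Genes that assemble or regulate the pump did not share 1 direction. Of 13 such genes that passed the filter, 9 read higher and 4 lower, with a median of 0.12. Tmem9, a lysosomal protein that binds the V-ATPase, read 7.18 in the array labelled knockout and 6.40 in the array labelled wild type, a difference of 0.78. Tmem199, an assembly factor of V0, differed by 0.50. Dmxl2, a rabconnectin that joins V1 to V0, read 8.06 in the array labelled knockout and 8.61 in the array labelled wild type, a difference of -0.55. The Ragulator and Rag GTPase genes, which couple the pump to mTORC1, had all 8 genes that passed the filter higher, with a median of 0.20 and Lamtor1 furthest at 0.41. Of all genes analysed 48.9% read higher. With each decile centred on its median, 6 of these 8 stayed above 0, with a median of 0.12.

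Other endolysosomal ion transporters were split evenly, with 7 of 15 higher and 8 lower and a median of 0.00. Among them P2rx4, an ATP-gated channel stored in lysosomes, read 9.29 in the array labelled knockout and 8.48 in the array labelled wild type, a difference of 0.81. The volume-regulated anion channel subunit Lrrc8c read 5.76 in the array labelled knockout and 6.26 in the array labelled wild type. The 12 lysosomal membrane protein genes had a median of 0.17, led by the tetraspanin Cd63 at 1.28.

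The mitochondrial ATP synthase, a rotary ATPase of another organelle, gave values close to those of the pump. All 15 of its genes that passed the filter read higher in the array labelled knockout, with a median of 0.19, against 0.22 for the V-ATPase. Of all genes analysed 48.9% read higher, and in the highest decile by level 70.3%. With each decile centred on its median, 12 of the 15 stayed above 0, with a median of 0.13, against 0.12 for the V-ATPase. The largest difference among the ATP synthase genes was 0.48, in Atp5j2, so none of them was 1.5-fold apart. No difference between these lists was tested.

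**Figure D4:**
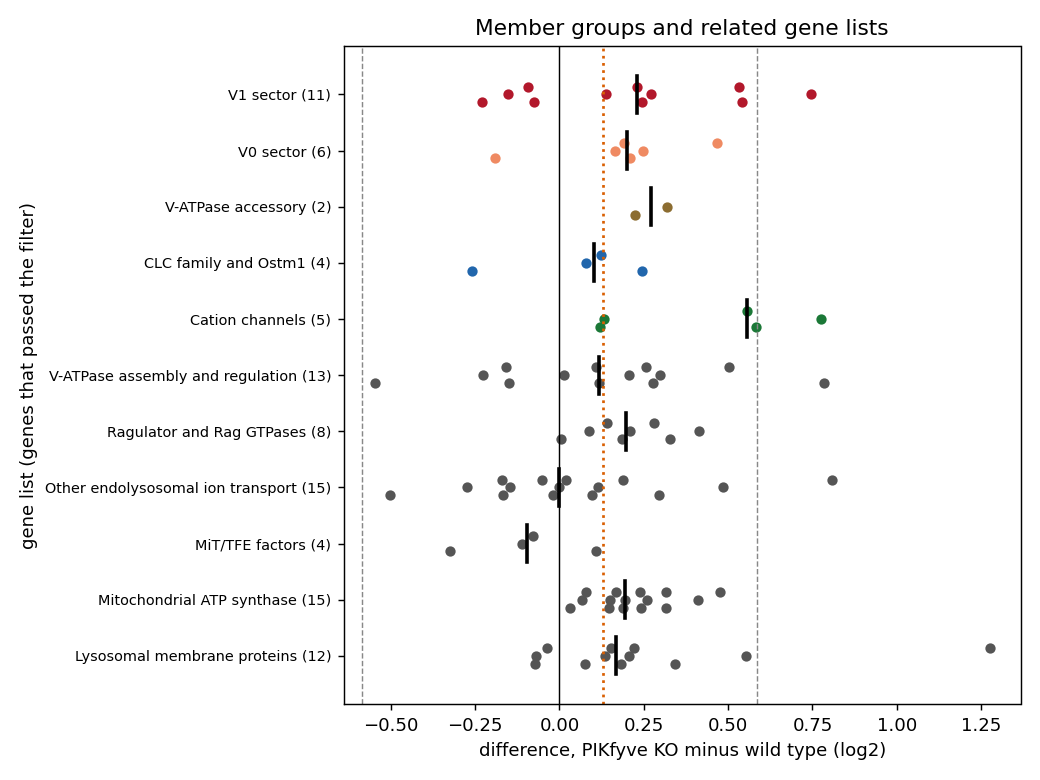
Difference between the arrays (knockout minus wild type, log2, x axis) for each gene that passed the filter, by list (y axis, number of genes in brackets), with list medians as black bars, dashed lines at 1.5-fold and a dotted line at 0.13, the median of the highest decile by level. The cation channel median is 0.56, and the medians of the V1 sector (0.23), V0 sector (0.20) and mitochondrial ATP synthase (0.19) lie close together.

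All 13 measured markers of alveolar macrophages lay above the receptor level on both arrays. So did all 10 neutrophil and all 7 B cell markers measured. Of the 12516 genes analysed, 11188 reached that level in the array labelled knockout and 11123 in the array labelled wild type. The count therefore does not identify the cells. Of the 13 alveolar macrophage markers, 8 read higher in the array labelled knockout, with a median of 0.13. With each decile centred on its median, 6 of the 13 lay above 0, with a median of -0.005. At least 1.5-fold lower were 3 of them, Krt79 (-0.98), Siglecf (-0.73) and Cidec (-0.59), where 2.66% of all genes analysed were. Only 1, Fabp4 (0.62), was at least 1.5-fold higher, where 4.45% were. Of the sort markers, Siglecf read 8.54 in the array labelled knockout and 9.27 in the array labelled wild type, and Itgax, which encodes CD11c, read 10.39 in the array labelled knockout and 10.03 in the array labelled wild type. Markers of other cells differed beside the members. As a background, 48.9% of all genes analysed read higher, and 70.3% of those in the highest decile by level. Neutrophil markers were higher in 8 of 10 genes with a median of 0.52, interstitial macrophage markers in 7 of 9 with a median of 0.64, and T and NK cell markers in 6 of 7 with a median of 0.48. All 6 monocyte markers that passed the filter were lower, with a median of -0.86. Airway secretory and ciliated epithelium markers were higher in 6 of 9, with a median of 0.16 and differences from -1.99 in Epcam to 2.47 in Bpifa1. Alveolar type 2 markers were higher in 4 of 8 with a median of 0.35, and endothelium markers in 4 of 5 with 0.05. Medians were 0.15 for fibroblast and smooth muscle, 0.08 for dendritic cell, 0.08 for eosinophil, mast cell and basophil, and 0.03 for B cell markers. Summed on the linear scale over each list, the ratio of the array labelled knockout to the array labelled wild type was 1.37 for neutrophil, 1.19 for interstitial macrophage, 1.11 for T and NK cell, 0.58 for monocyte and 1.26 for airway markers. That ratio was 1.27 for endothelium and 1.11 for alveolar type 2 markers, and 1.07 over all genes analysed. Of the list for proton-pump-rich epithelium, which shares Atp6v1b1 and Atp6v0a4 with the pump, 1 of 7 genes in the array labelled knockout and 3 of 7 in the array labelled wild type reached the receptor level. The part of these cells in the members' differences was not tested.

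No member's difference changed sign under the scalings between arrays or with the highest probe set of each gene, the settings that could turn it. The lower probe set of Ostm1, not used alone in any setting, differed by -0.11. Filters leave a difference as it is, and an offset shrinks it without turning it. The plot of settings shows Mcoln2 between 0.52 and 0.84 and Tmem175 between 0.43 and 0.65, so Tmem175 lay on either side of the 1.5-fold threshold depending on the setting.

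**Figure D5:**
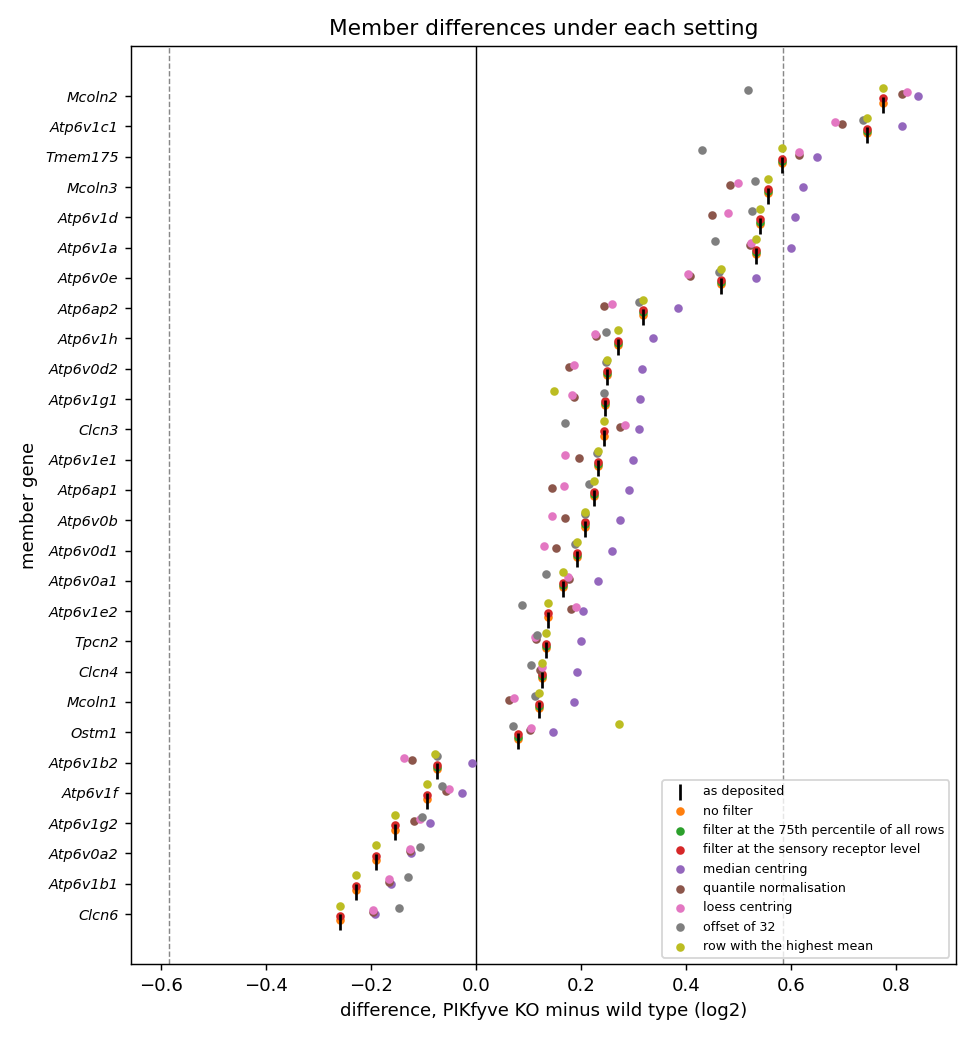
Difference between the arrays (knockout minus wild type, log2, x axis) of the 28 members that passed the filter (y axis) as deposited and under 8 other settings (colours), with dashed lines at 1.5-fold. Filters and the offset cannot turn a sign. No member changes sign under the scalings or with the highest probe set of each gene, and Atp6v1c1 ranges from 0.68 to 0.81.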

How the data were processed

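The authors deposited log2 values for 41345 probe sets on 2 arrays, made with RMA (background correction, normalisation between arrays, 1 value per probe set), per the submitters' processing notes. The RMA version and the genome build were not given in the sources used here. That the log base is 2 was inferred from RMA's convention and the range of values. No scanner files were used. Probe sets were named through the platform's gene annotation. Of them, 23521 have 1 symbol, 1814 have several and 16010 are not listed, and only the first kind was named. Probe sets of a gene were averaged. Symbols of all 37 members matched a RefSeq gene table by Entrez identifier. With 1 array per genotype there was no test, and members were described by differences, thresholds of 1.5-fold and 2-fold, and the same counts over all genes. Precision is limited by the number of arrays, and depth shows only as signal over the receptor level. The local spread used 20 bins of level. Every member, Pikfyve and up to 3 genes of each related list with the largest difference were to be named. Tcirg1 and Siglecf were named for their roles. Members were set by symbol and the lists by known roles, both with earlier results of these data known. The code was tested on simulated data. Alternatives were other filters, scalings, an offset, the highest probe set of a gene and another fold threshold. Python 3.11.15, pandas 2.3.3 and statsmodels 0.14.6 were used.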

Additional observations from a re-analysis of the deposited data

How the results depend on the processing

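No member that passed the filter changed sign under the scalings between arrays or with the highest probe set of each gene. That choice alters only the 3 members with several probe sets. It leaves out the other probe set of Ostm1, which differed by -0.11. Filters and the offset cannot turn a sign, and median centring moves every difference by the same amount. The number of pump genes at least 1.5-fold higher was 1 as deposited and 3 with median centring, which added Atp6v1d and Atp6v1a, and 0 at a threshold of 2-fold. The number of channel genes 1.5-fold apart was 1 as deposited, 3 with median centring, 2 with quantile normalisation or loess centring (span 0.3), and 0 with a filter set at percentile 75, which leaves out Mcoln2, with an offset of 32, or at 2-fold. The share of all genes past the threshold was 7.11% as deposited, 3.31% with the offset and 1.26% at 2-fold. The channel median was 0.13 as deposited and 0.24 with the highest probe set of each gene, where Ostm1 is taken from 1 probe set. The pump median was 0.22 as deposited and 0.12 with each decile of level centred, an alternative chosen after seeing the data. The median of all genes moved by at most 0.07, with median centring. The difference of Mcoln2 was 0.52 with the offset, which shrinks differences of dim genes by construction. No paired analysis was possible because each genotype has 1 array. With 1 array per genotype, differences between mice, sorts and hybridisations cannot be told apart from genotype.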

Other observations

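Atp6v0d2 belongs with genes of osteoclasts and multinucleated giant cells, and other genes of that list differed more than it did. The protease gene Ctsk read 12.20 in the array labelled knockout and 10.88 in the array labelled wild type, and Acp5, the tartrate-resistant acid phosphatase, read 11.11 in the array labelled knockout and 9.97 in the array labelled wild type. Atp6v0d2 differed by 0.25. The fusion genes Dcstamp and Ocstamp differed by 0.11 and 0.45, and Nfatc1, the master transcription factor of osteoclasts, by -0.37. Of 7 genes of the list that passed the filter, 5 read higher. That is near the 70.3% of genes that did in the highest decile by level, where Ctsk, Acp5 and Atp6v0d2 lie. Over all genes analysed the share was 48.9%.

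Among the Rag GTPase genes, the isoforms Rragb and Rragd lay below the filter. Rragd read 5.13 in the array labelled knockout and 4.27 in the array labelled wild type, and Rragb read 4.68 in the array labelled knockout and 3.78 in the array labelled wild type. All 4 values lie below the receptor level of their array, so no fold is given.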
